A study of Mus musculus with 18 samples.

Results

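The genes described here are the RING finger protein genes whose mouse symbol is Rnf followed by a number, other than the knocked-down gene Rnf185 and 5 further membrane ligase genes (Rnf5, Rnf121, Rnf139, Rnf145 and Rnf170). The symbol rule found 62 such genes among the 15386 genes of the deposited normalised table. A further 12 matching genes were outside that table, with summed counts of 0 to 55 over all 18 libraries, and were not analysed here. RNA was measured in MPC3 cells, a mouse prostate cancer line, in 3 groups of 6 libraries: control cells labelled plko, cells with hairpin shRNF185.1 and cells with hairpin shRNF185.3. A short hairpin RNA lowers the messenger RNA that it matches, and both hairpins were directed at Rnf185. All 3 groups are the same cell line, and neither the hairpin sequences nor whether the hairpin cells were pools or single clones is given in the sources used here. The libraries were made from polyadenylated RNA with a directional kit and read as single 75-base reads, and each of 3 batches held 2 libraries of every group. Nothing in the labels says that the 6 libraries of a group came from separate cultures. Each p-value therefore measures the spread between these libraries, which may be technical. The deposited counts are labelled as batch adjusted, and the main fit held no batch term. That spread may therefore be understated and the p-values too small.

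A RING finger is a zinc-binding fold that brings a ubiquitin-charged E2 enzyme to a substrate, so that ubiquitin passes from the E2 to the substrate. RING-between-RING proteins differ in that they first take the ubiquitin onto themselves. The Rnf symbol records the fold and not common descent, and the genes include membrane-anchored ligases of the secretory pathway, nuclear ligases that act on histones and at DNA breaks, and ligases of innate immune signalling. Rnf185 itself encodes a ligase of the endoplasmic reticulum membrane. Levels are given as CPM, the counts scaled to a common library size, and a gene is called changed at an adjusted p under 0.05 in edgeR's quasi-likelihood test with Benjamini-Hochberg adjustment over 14309 genes. Of the 62 genes, 61 passed the filter on low counts. The gene that did not was Rnf144a, at 0.152 ± 0.0636 CPM in control, 0.260 ± 0.125 under shRNF185.1 and 0.307 ± 0.124 under shRNF185.3 (SD, n = 6).

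Promoter windows of 300 bases, from 250 before to 50 after a RefSeq transcript start on GRCm38.p6, were matched by symbol for 50 of the 62 genes. Rnf213 and Rnf149 are shown because they rose most with both hairpins, and they had 27 and 33 CG dinucleotides and a GC content of 67.0% and 71.3%. The Rnf213 window was chr11:119389849-119390148 on the plus strand, upstream of the gene's start in GENCODE M21, and the Rnf149 window was chr1:39577298-39577597 on the minus strand, across the gene's start.
Rnf213: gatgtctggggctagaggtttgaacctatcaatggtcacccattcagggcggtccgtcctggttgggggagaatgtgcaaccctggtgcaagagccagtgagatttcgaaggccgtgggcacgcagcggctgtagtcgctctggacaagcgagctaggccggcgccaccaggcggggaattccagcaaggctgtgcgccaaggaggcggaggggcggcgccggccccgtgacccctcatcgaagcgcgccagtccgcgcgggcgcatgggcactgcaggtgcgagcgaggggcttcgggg
Rnf149: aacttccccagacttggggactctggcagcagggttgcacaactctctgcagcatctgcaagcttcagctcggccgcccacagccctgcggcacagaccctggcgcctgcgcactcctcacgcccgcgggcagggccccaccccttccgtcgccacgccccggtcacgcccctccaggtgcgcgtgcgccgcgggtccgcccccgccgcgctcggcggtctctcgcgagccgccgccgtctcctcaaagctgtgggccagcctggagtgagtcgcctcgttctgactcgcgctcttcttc
The interferon-stimulated response element was searched on both strands as 2 copies of GAAA with any 2 bases between them. It was in 4.62% of the 65 windows of these genes and in 3.44% of all 32851 windows, and neither window above holds it. The 3 windows with it belonged to Rnf20, Rnf146 and Rnf182. The windows of Rnf20 (chr4:49638375-49638674, plus strand) and Rnf146 (chr10:29357664-29357963, minus strand) are shown because both genes were called lower with at least 1 hairpin, and the capitals mark the match. Both windows lie inside the gene as GENCODE M21 draws it, and Rnf146 has a second window without the match.
Rnf20: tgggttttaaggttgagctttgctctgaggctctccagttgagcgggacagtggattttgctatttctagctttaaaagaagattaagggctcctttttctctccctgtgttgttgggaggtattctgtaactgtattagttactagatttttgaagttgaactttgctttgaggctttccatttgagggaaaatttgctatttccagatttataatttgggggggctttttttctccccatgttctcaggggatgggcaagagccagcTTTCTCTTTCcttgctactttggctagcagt
Rnf146: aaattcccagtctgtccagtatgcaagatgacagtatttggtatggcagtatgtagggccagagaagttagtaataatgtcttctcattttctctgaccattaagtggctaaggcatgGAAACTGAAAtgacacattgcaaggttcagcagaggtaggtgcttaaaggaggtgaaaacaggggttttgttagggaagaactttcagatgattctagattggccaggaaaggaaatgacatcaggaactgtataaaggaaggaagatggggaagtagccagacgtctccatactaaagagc
The interferon-gamma activated site, TTCNNNGAA, which reads the same on both strands and was added after the values were seen, was in 9.23% of the windows of these genes (Rnf10, Rnf115, Rnf144b, Rnf183, Rnf220 and Rnf26) and in 8.30% of all windows. The median GC content was 60.7% over the windows of these genes and 52.7% over all windows.

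Rnf185 lay between 33.6 and 38.4 CPM in the control libraries, between 5.21 and 6.80 with shRNF185.1 and between 5.19 and 6.72 with shRNF185.3. The fall was 2.63 on the log2 scale with each hairpin (SE 0.07; adjusted p 9.3e-15 and 1.91e-14). Total counts per library, in units of M counts, ranged from 24.1 to 43.4 for control, from 24.6 to 32.4 for shRNF185.1 and from 22 to 32.2 for shRNF185.3. Of the markers examined for the labelled line, Krt8 (1200 CPM in control), Krt18 (354) and Hoxb13 (56.5) were present, while Epcam (43 counts over all libraries) and Pbsn (0 counts) were at or near 0. Vim was at 3200 CPM in control and was not called with either hairpin. Fn1, another mesenchymal marker, was at 2540 CPM in control, 2520 under shRNF185.1 and 3370 under shRNF185.3, and was called higher with the latter (0.41, adjusted p 0.0108). The 3 mesenchymal markers summed to 4624 to 6418, 5391 to 6347 and 6238 to 7525 CPM in the 3 groups. The summed level of 6 epithelial markers was 1439 to 1775 CPM, on plain library totals, in control, 896 to 1210 with shRNF185.1 and 960 to 1060 with shRNF185.3, and 4 of the 4 tested were called lower with shRNF185.1 and 3 with shRNF185.3. The leukocyte markers Ptprc and Adgre1 had 13 counts and 1 count over all libraries, and the 3 leukocyte markers summed to 2.40 to 5.11, 1.76 to 2.98 and 2.18 to 3.38 CPM in the 3 groups. In bulk RNA fewer cells of a type and less RNA per cell cannot be told apart, and the part of these marker shifts in the values below was not tested.

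With shRNF185.1, 17 of the 61 genes (27.9%) were called, 10 higher and 7 lower, against 28.9% of all genes tested. The background by direction was 14.6% called higher and 14.3% called lower. The median log2 fold change was 0.05 for these genes and -0.02 for all genes. When libraries were scaled by total count only, 20 genes passed, 14 of them higher and 6 lower. In that fit 29% of all genes passed, and 56.8% of those were higher, against 50.6% in the main fit. With batch as a covariate, with no filter on low counts, or with only the 2 groups compared, 12 passed each time, 6 higher and 6 lower. All genes passed at 24.9%, 12.7% and 24.8% in these fits. With shRNF185.3, 19 were called (31.1%), 5 higher and 14 lower, where 27.3% of all genes were called, 14.2% higher and 13.1% lower. The medians were -0.03 for these genes and -0.02 for all genes. Both total shares are near the background, which is not a result about these genes as a group. With shRNF185.3 the split by direction, 5 higher and 14 lower, was less even than that of all genes, and it was not tested. The same background shares apply to the counts by role below, which rest on few genes each. The comparisons share the control libraries, so their values stand side by side below and no count of shared calls is given as a result. The plot of fold changes by role shows every tested gene.

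**Figure D1:**
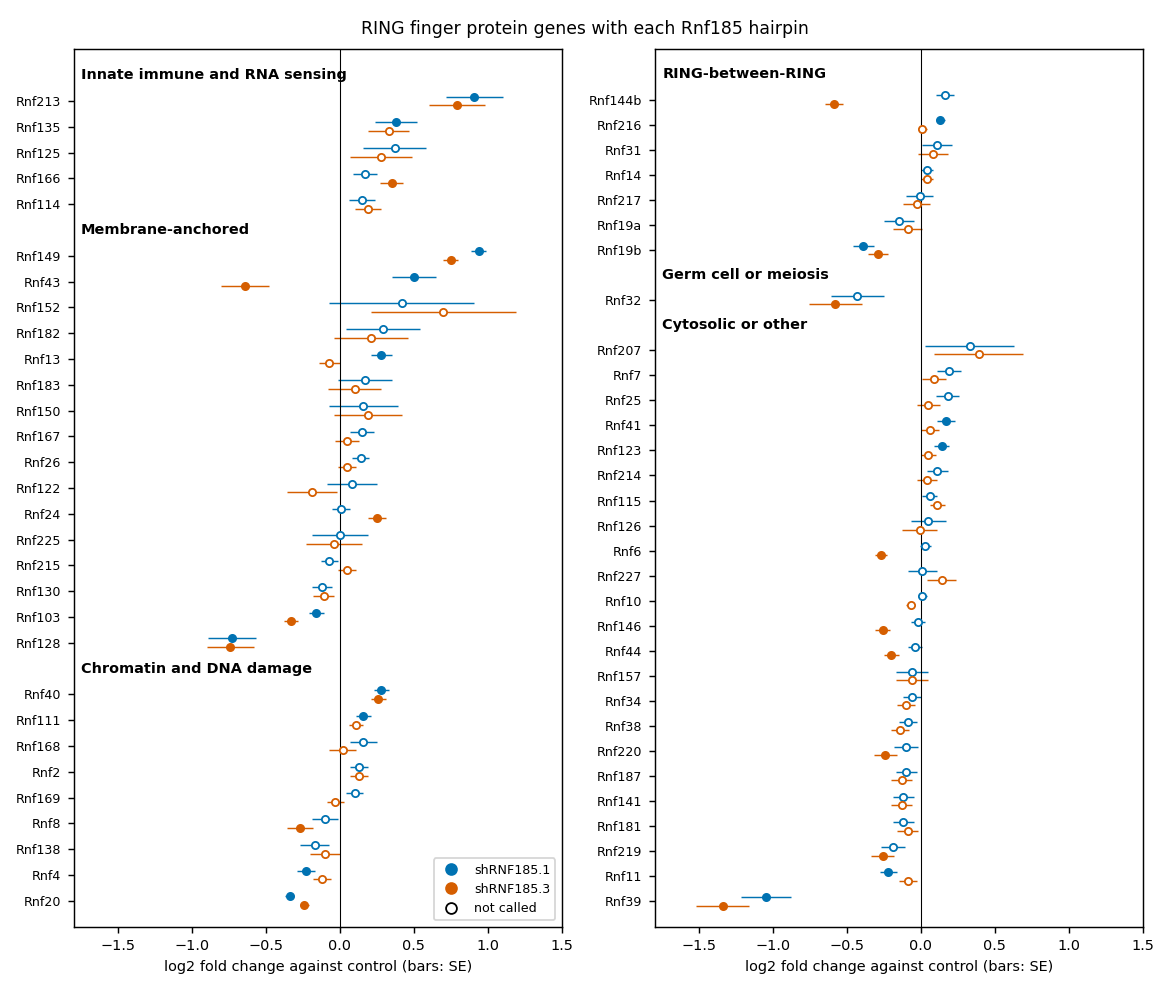
Log2 fold change of each tested RING finger protein gene against control with each hairpin, grouped by role, with bars for the standard error and filled points for genes called at an adjusted p under 0.05. The panels divide the roles, and both hairpins are drawn in each. Rnf149 and Rnf213 have the largest rises with each hairpin and Rnf39 the largest fall.

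Of the 5 genes of innate immune and RNA sensing, 2 were called higher with shRNF185.1 (Rnf213 and Rnf135), 2 with shRNF185.3 (Rnf213 and Rnf166) and none lower, where 14.6% and 14.2% of all genes were called higher. The median log2 fold change of the 5 was 0.37 and 0.33. Rnf213 (chromosome 11, 119393100 to 119487418), a very large ATPase and ubiquitin ligase that is induced by interferon and coats intracellular bacteria with ubiquitin, lay at 94.8, 153 and 215 CPM in control (lowest, median and highest). It lay at 241, 300 and 345 CPM with shRNF185.1 and at 205, 254 and 395 with shRNF185.3. All 6 shRNF185.1 libraries and 4 of the 6 shRNF185.3 libraries were above the highest control library, and the other two shRNF185.3 libraries were within the control range. The shRNF185.1 rise was 0.91 on the log2 scale (SE 0.19, adjusted p 0.0011). The shRNF185.3 rise was 0.79 (SE 0.19, adjusted p 0.00369). Within batches the shRNF185.3 difference was 0.32, 0.40 and 1.68, and the shRNF185.1 difference was 0.67, 0.75 and 1.42. Without batch 3, where the 2 control libraries were the lowest of their group, the shRNF185.3 value was 0.36 and was not called (adjusted p 0.0955).

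Rnf135 encodes Riplet, the ligase that attaches ubiquitin chains to the RNA sensor RIG-I. It lay at 5.43, 6.72 and 9.16 CPM in control, at 7.41, 9.56 and 10.7 under shRNF185.1 and at 6.95, 8.40 and 11.6 under shRNF185.3. The groups overlapped, with 4 shRNF185.1 and 2 shRNF185.3 libraries above the highest control. The shRNF185.1 rise was 0.38 (SE 0.14, adjusted p 0.0483), and the shRNF185.3 value was 0.33 (adjusted p 0.0908). The shRNF185.1 call was close to the threshold: it was lost when replicate numbers were fitted as blocks (adjusted p 0.101) and in 13 of the 18 fits that left out 1 library (adjusted p 0.0522 to 0.110), and within batch 2 the difference was -0.09. Those 13 were control replicates 1, 2, 5 and 6, shRNF185.1 replicates 1, 2, 3, 5 and 6, and shRNF185.3 replicates 1, 2, 4 and 6.

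Rnf166, a zinc finger ligase that marks invading bacteria for autophagy, lay at 17, 22 and 25.1 CPM in control, 21.7, 24.5 and 26.8 under shRNF185.1 and 26.1, 27.2 and 30.7 under shRNF185.3. Every shRNF185.3 library was above the highest control, while the shRNF185.1 libraries overlapped the control range. The rise was 0.35 with shRNF185.3 (SE 0.08, adjusted p 0.00319) and the shRNF185.1 value was 0.17 (adjusted p 0.12). Without batch 3 the shRNF185.3 value was 0.21 and was not called (adjusted p 0.0777). Rnf125, which marks RIG-I for degradation, was barely expressed (0.220 to 0.522 CPM in control) and had log2 fold changes of 0.37 and 0.28, and its relative Rnf114 had 0.15 and 0.19, with none of these called.

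The list of interferon-stimulated genes was chosen with earlier results of these data known, so its values are a description and not a test. These genes were higher in the same libraries. Of 10, 9 were called higher with shRNF185.1 (median log2 fold change 2.04) and 8 with shRNF185.3 (median 1.90), against a background of 14.6% and 14.2% of genes called higher. Their summed level was 34.7 to 145 CPM on plain library totals in control, 196 to 309 with shRNF185.1 and 158 to 332 with shRNF185.3. Ifit1, which binds foreign RNA, rose by 2.5 and 1.83 (adjusted p 3.05e-06 and 9.78e-05). Stat2 was not called with either (0.63 and 0.51, adjusted p 0.196 and 0.308), nor was Irf7 with shRNF185.3 (1.23, adjusted p 0.0523). The fold changes of Rnf213 were smaller than these list medians.

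Of the 16 membrane-anchored genes, shRNF185.1 gave 3 higher and 2 lower calls, and shRNF185.3 gave 2 higher and 3 lower. Several of these proteins carry a protease-associated domain in the lumen, a single membrane span and a RING on the cytosolic side. Rnf149 is of this kind and showed the largest rise among all 61 genes with shRNF185.1, and the second largest with shRNF185.3. It lay at 19.0, 22.3 and 23.2 CPM in control, 39.3, 41.5 and 45.3 under shRNF185.1 and 34.6, 36.0 and 39.8 under shRNF185.3. Every library of either hairpin was above every control library, as the plot of genes called with both hairpins shows. On the log2 scale the shRNF185.1 rise was 0.94 (SE 0.05, adjusted p 4.41e-10), and the shRNF185.3 rise was 0.75 (SE 0.05, adjusted p 1.14e-08). The gene lies at chromosome 1, 39551296 to 39577405, and 24.9% of its exonic bases overlap another gene on the same strand, so that part of its reads could have been counted for either.

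**Figure D2:**
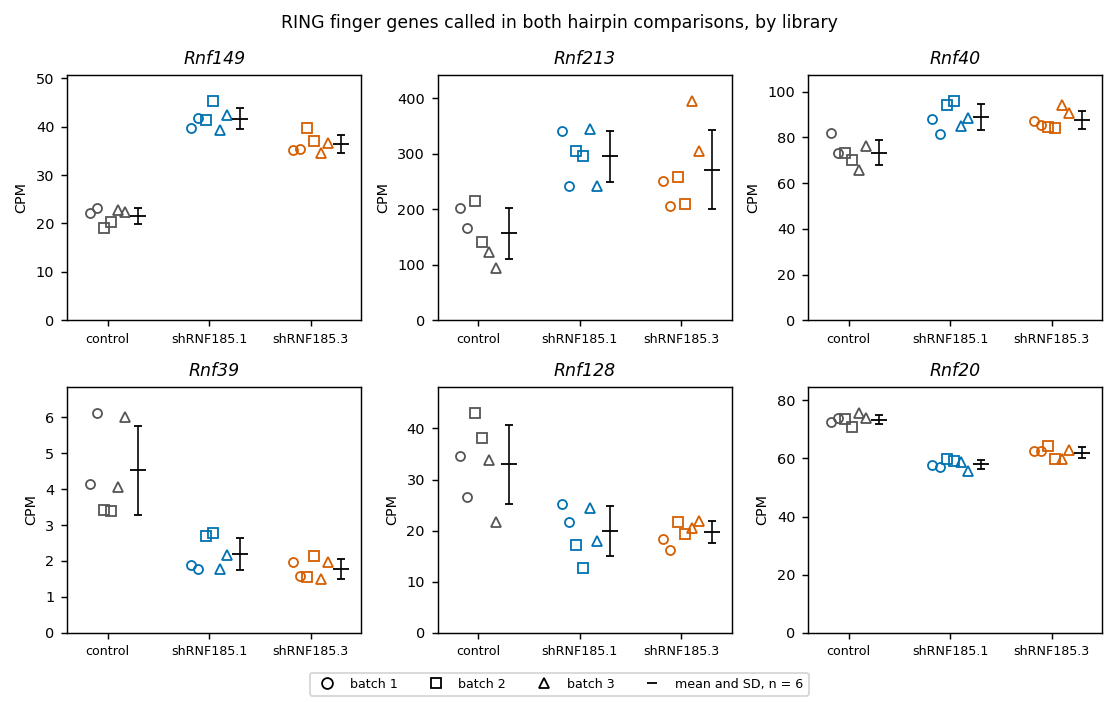
CPM of 6 genes by library, with symbols for the batch and bars for the mean and SD of 6 libraries in each group. Rnf149, Rnf213 and Rnf40 are higher with both hairpins, and Rnf39, Rnf128 and Rnf20 are lower, with overlap between control and hairpin libraries for Rnf128, for shRNF185.3 in Rnf213 and for 1 shRNF185.1 library in Rnf40.

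Rnf128 (chromosome X, 139563316 to 139673145), known as GRAIL and as a brake on T cell activation, fell with both hairpins. It lay at 21.6, 34.3 and 43 CPM in control, 12.6, 19.8 and 25.2 under shRNF185.1 and 16.1, 20.0 and 21.8 under shRNF185.3. Of the hairpin libraries, 3 with shRNF185.1 and 4 with shRNF185.3 were below the lowest control library, and the rest overlapped it. It fell by 0.73 (SE 0.16, adjusted p 0.00222) and by 0.74 (SE 0.16, adjusted p 0.00218) on the log2 scale. The shRNF185.1 difference was -0.38, -1.45 and -0.38 in the 3 batches, and without batch 2 it was -0.38 and not called (adjusted p 0.0635).

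Rnf103, a ligase of the endoplasmic reticulum membrane, lay at 23.6, 24.9 and 28.0 CPM in control, 21.1, 23.0 and 23.8 under shRNF185.1 and 19.2, 19.6 and 21.6 under shRNF185.3. All 6 shRNF185.3 libraries and 5 of the shRNF185.1 libraries were below the lowest control. It fell by 0.33 with shRNF185.3 (SE 0.05, adjusted p 0.000106) and by 0.16 with shRNF185.1 (SE 0.05, adjusted p 0.0275). The shRNF185.1 call was lost without control replicate 3 or 5 or shRNF185.1 replicate 2 or 6 (adjusted p 0.0573 to 0.0657), without any 1 batch (0.0654 to 0.230) and with batch as a covariate (0.0505).

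The remaining membrane-anchored genes were Rnf13, Rnf24 and Rnf43 among those called, and their values differed between the hairpins. Rnf13 is a ligase of endosomes and lysosomes with a protease-associated domain. It lay at 62.6, 69.0 and 81.8 CPM in control, 75.5, 85.7 and 90.3 under shRNF185.1 and 58.7, 66.6 and 72.6 under shRNF185.3. All shRNF185.3 libraries were below all shRNF185.1 libraries, and both overlapped control. It rose by 0.28 with shRNF185.1 (SE 0.07, adjusted p 0.0038), and the shRNF185.3 value was -0.07 (adjusted p 0.447). Without batch 1 the rise was 0.22 and was not called (adjusted p 0.13).

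Rnf24, a small membrane protein known to bind TRPC channels, lay at 38.7, 41.8 and 47.7 CPM in control, 38.5, 43.2 and 47.0 under shRNF185.1 and 44.7, 50.5 and 54.1 under shRNF185.3. Of the shRNF185.3 libraries, 5 were above the highest control. It rose by 0.25 with shRNF185.3 (SE 0.06, adjusted p 0.00626), and the shRNF185.1 value was 0.01 (adjusted p 0.932). The call was lost without batch 1 (adjusted p 0.112) and without batch 2 (0.0814), and 17.7% of its exonic bases lie opposite exons of other genes on the other strand. Whether the counting used the strand of the reads is not given in the sources used here.

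Rnf43 removes Frizzled receptors from the cell surface and so lowers Wnt signalling. It was the gene called in opposite directions, with low counts of 16 to 62 per library. It lay at 1.35, 1.42 and 1.86 CPM in control, 1.77, 2.15 and 2.37 under shRNF185.1 and 0.665, 0.899 and 1.35 under shRNF185.3. With shRNF185.1, 5 libraries were above the highest control, and with shRNF185.3 all 6 were below the lowest before rounding. It rose by 0.50 with shRNF185.1 (SE 0.15, adjusted p 0.0198) and fell by 0.64 with shRNF185.3 (SE 0.16, adjusted p 0.00659). The rise was not called without batch 1 (0.49, adjusted p 0.127) or batch 3 (0.43, 0.121), and the fall was not called without batch 1 (-0.65, 0.0603) or batch 2 (-0.54, 0.0861).

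Of the 9 genes of chromatin and DNA damage, shRNF185.1 gave 2 higher and 2 lower calls, and shRNF185.3 gave 1 higher and 2 lower. Rnf20 and Rnf40 encode the 2 partners of the ligase that attaches a single ubiquitin to histone H2B, and their RNA moved in opposite directions. Rnf20 (chromosome 4, 49632006 to 49656887) lay at 70.9, 73.7 and 75.6 CPM in control, 55.6, 58.2 and 59.7 under shRNF185.1 and 59.7, 62.6 and 64.4 under shRNF185.3. Every hairpin library was below every control library. It fell by 0.34 (SE 0.03, adjusted p 3.9e-07) and by 0.24 (SE 0.03, adjusted p 2.15e-05) on the log2 scale. Rnf40 (chromosome 7, 127588767 to 127604799) lay at 65.6, 73.2 and 82.1 CPM in control, 81.3, 88.2 and 96.0 under shRNF185.1 and 84.0, 86.4 and 94.2 under shRNF185.3. All hairpin libraries but 1 of shRNF185.1 were above the highest control. It rose by 0.28 (SE 0.05, adjusted p 0.000681) and by 0.26 (SE 0.05, adjusted p 0.00126), and 13.6% of its exonic bases lie opposite exons of other genes.

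Rnf4 is a ligase that recognises proteins carrying SUMO chains. It lay at 150, 169 and 187 CPM in control, 132, 143 and 156 under shRNF185.1 and 145, 154 and 163 under shRNF185.3. With shRNF185.1, 5 libraries were below the lowest control, while most shRNF185.3 libraries were within its range. It fell by 0.23 with shRNF185.1 (SE 0.06, adjusted p 0.00336), and the shRNF185.3 value was -0.12 (adjusted p 0.117). Without batch 1 the value was -0.22 and was not called (adjusted p 0.089), and without batch 3 the value was -0.13 (adjusted p 0.114).

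Rnf8, which begins the ubiquitin response at DNA double-strand breaks, lay at 24.0, 25.2 and 30.5 CPM in control, 19.1, 25.6 and 28.1 under shRNF185.1 and 19.2, 21.9 and 23.9 under shRNF185.3. All shRNF185.3 libraries were below the lowest control. It fell by 0.27 with shRNF185.3 (SE 0.09, adjusted p 0.024), and the shRNF185.1 value was -0.10. Of its exonic bases 13.2% overlap another gene on the same strand. The call was lost without control replicate 2 or 6 or shRNF185.3 replicate 6 (adjusted p 0.0563 to 0.0633) and without batch 3 (-0.20, adjusted p 0.249).

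Rnf111, known as Arkadia, a SUMO-targeted ligase that strengthens TGF-beta signalling, lay at 32.2, 35.3 and 37.9 CPM in control, 35.5, 39.5 and 42.0 under shRNF185.1 and 36.8, 37.4 and 39.4 under shRNF185.3. The groups overlapped, with 3 and 2 hairpin libraries above the highest control. It rose by 0.16 with shRNF185.1 (SE 0.05, adjusted p 0.0296), and the shRNF185.3 value was 0.11 (adjusted p 0.145). The call was lost without any 1 of 6 libraries (control replicates 2, 4 and 6 and shRNF185.1 replicates 1, 3 and 5, adjusted p 0.0533 to 0.0719), without any 1 batch (0.102 to 0.136) and with batch as a covariate (0.053). Rnf2, the catalytic subunit of Polycomb repressive complexes, was not called (0.13 and 0.13, adjusted p 0.0983 and 0.11), nor was Rnf168, which extends the ubiquitin signal at breaks (0.16 and 0.02, adjusted p 0.216 and 0.883).

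Of the 8 RING-between-RING genes, 7 were tested, and shRNF185.1 gave 1 higher and 1 lower call and shRNF185.3 gave 2 lower. Rnf144b (chromosome 13, 47122656 to 47247991), known as a target of the tumour suppressor Trp53, had the clearest difference. It lay at 12.4, 13.7 and 14.8 CPM in control, 13.3, 15.6 and 16.7 under shRNF185.1 and 8.74, 9.05 and 9.56 under shRNF185.3. Every shRNF185.3 library was below every other library, while 4 shRNF185.1 libraries were above the highest control. It fell by 0.59 with shRNF185.3 (SE 0.06, adjusted p 1.04e-06), and the shRNF185.1 value was 0.16 (adjusted p 0.0607).

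Rnf19b, a ligase known from the cytolytic granules of natural killer cells, lay at 70.7, 81.9 and 92.9 CPM in control, 55.3, 63.0 and 68.2 under shRNF185.1 and 59.8, 65.9 and 74.2 under shRNF185.3. All shRNF185.1 libraries and 5 shRNF185.3 libraries were below the lowest control. It fell by 0.39 (SE 0.07, adjusted p 0.000394) and by 0.29 (SE 0.07, adjusted p 0.0043). The shRNF185.3 fall was not called without batch 1 (-0.29, adjusted p 0.0756) or batch 2 (-0.17, 0.0869), and within batch 3 it was -0.01. Rnf216, a ligase of Toll-like receptor signalling that is outside the rule for named genes and was chosen after its values were seen, rose by 0.13 with shRNF185.1 (SE 0.03, adjusted p 0.00782). Its call was lost without batch 1 (adjusted p 0.0905) or batch 3 (0.0836). Rnf31, the catalytic subunit of the ligase that builds linear ubiquitin chains, was not called (0.11 and 0.08, adjusted p 0.421 and 0.598).

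Of the 23 cytosolic or other genes, shRNF185.1 gave 2 higher and 2 lower calls, and shRNF185.3 gave none higher and 6 lower. The 4 calls (17.4%) and the 6 calls (26.1%) stand against 28.9% and 27.3% of all genes. Rnf39 (chromosome 17, 36942918 to 36947986), a gene beside the class I genes of the major histocompatibility complex, had the largest fall of all 61 genes with each hairpin. It lay at 3.39, 4.10 and 6.12 CPM in control, 1.78, 2.04 and 2.79 under shRNF185.1 and 1.5, 1.77 and 2.15 under shRNF185.3. All 12 hairpin libraries were below the lowest control, on counts of 36 to 192 per library. It fell by 1.05 (SE 0.17, adjusted p 0.000139) and by 1.34 (SE 0.18, adjusted p 1.39e-05) on the log2 scale. The shRNF185.1 difference was -1.48, -0.31 and -1.36 in the 3 batches, and the shRNF185.3 difference was -1.53, -0.87 and -1.53.

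Rnf6, a RING-H2 ligase, lay at 74.4, 82.3 and 86.3 CPM in control, 80.2, 83.3 and 84.7 under shRNF185.1 and 63.9, 67.3 and 70.1 under shRNF185.3. The shRNF185.1 libraries lay within the control range and all shRNF185.3 libraries below it. It fell by 0.27 with shRNF185.3 (SE 0.04, adjusted p 3.62e-05), and the shRNF185.1 value was 0.03. Rnf146 binds poly(ADP-ribose) and targets axin for degradation, and it had the same arrangement. It lay at 31.5, 33.5 and 37.0 CPM in control, 31.9, 33.4 and 35.5 under shRNF185.1 and 26.1, 28.4 and 29.5 under shRNF185.3. It fell by 0.26 with shRNF185.3 (SE 0.05, adjusted p 0.000371), and the shRNF185.1 value was -0.02. Of its exonic bases 76.8% lie opposite exons of other genes, Echdc1 among them, so without a statement on strand its reads could not be told from theirs.

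Rnf11, a small RING protein of the complex that ends inflammatory NF-kappaB signalling, lay at 80.6, 88.4 and 102 CPM in control, 72.9, 75.7 and 83.1 under shRNF185.1 and 76.8, 83.5 and 90.6 under shRNF185.3. With shRNF185.1, 5 libraries were below the lowest control. It fell by 0.22 with shRNF185.1 (SE 0.06, adjusted p 0.00726), and the shRNF185.3 value was -0.09. Without batch 2 the shRNF185.1 value was -0.20 and was not called (adjusted p 0.0529).

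Rnf123, the catalytic part of a ligase for a cell cycle inhibitor, and Rnf41, which lowers the receptor ErbB3, were called higher with shRNF185.1 near the threshold. Rnf123 lay at 28.5, 31.4 and 33.4 CPM in control, 32.5, 34.1 and 36.6 under shRNF185.1 and 30.4, 31.5 and 34.9 under shRNF185.3, and rose by 0.14 with shRNF185.1 (SE 0.05, adjusted p 0.0411; 0.0836 with the block). Rnf41 lay at 41.1, 46.4 and 52.4 CPM in control, 48.6, 52.5 and 57.2 under shRNF185.1 and 43.3, 48.5 and 52.7 under shRNF185.3, and rose by 0.17 (SE 0.06, adjusted p 0.0384; 0.0549 with the block). In both genes 3 shRNF185.1 libraries were above the highest control and the rest overlapped it. Exons of other genes lie opposite 18% of the exonic bases of Rnf123, on the other strand. The Rnf123 call was lost without control replicate 2, 5 or 6 or shRNF185.1 replicate 1, 3 or 5 (adjusted p 0.0629 to 0.0969), and the Rnf41 call without control replicate 2, 3, 5 or 6 or shRNF185.1 replicate 1, 3, 5 or 6 (0.0543 to 0.0948). Without 1 batch, Rnf123 was not called in batch 1's or batch 3's absence (adjusted p 0.165 and 0.268), and Rnf41 in the absence of any (0.0536 to 0.42).

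The other calls with shRNF185.3, outside the rule for named genes and listed after their values were seen, were all falls. Rnf44 fell by 0.20 (adjusted p 0.00798), Rnf220 by 0.24 (adjusted p 0.0219) and Rnf219, known for a role in replication origin firing, by 0.26 (adjusted p 0.0304; 0.0529 with the block). Rnf32, a gene expressed in testis and the one germ cell gene here, lay at 0.696 to 1.16 CPM in control and fell by 0.58 (adjusted p 0.0256; 0.0515 with DESeq2). Each of these 4 calls was lost without at least 2 of the 3 batches in turn (adjusted p 0.0655 to 0.435). Leaving out 1 library also ended the calls of Rnf219 (control replicate 2, 5 or 6 or shRNF185.3 replicate 4 or 5, adjusted p 0.0564 to 0.0782), Rnf220 (control replicate 6 or shRNF185.3 replicate 5, 0.0505 to 0.0535) and Rnf32 (control replicate 1 or shRNF185.3 replicate 3 or 6, 0.0540 to 0.0615). With the block, Rnf26 and Rnf7 were called higher with shRNF185.1 (0.14 and 0.19, adjusted p 0.0168 and 0.0394), which they were not without it (0.0578 and 0.067).

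The hairpins were also compared with each other, which does not use the control libraries in the contrast. Of the 61 genes 9 were called (14.8%), 1 higher and 8 lower with shRNF185.3, against 14.7% of all genes, 7.72% higher and 6.94% lower. The calls were in 3 roles: the membrane-anchored genes had 1 higher and 4 lower, and the RING-between-RING genes and the cytosolic or other genes had 2 lower each. The median log2 difference was -0.05 for the 61 genes. Rnf43 was the farthest apart, lower under shRNF185.3 by a log2 difference of -1.13 (SE 0.16, adjusted p 7.52e-05), with -1.11, -1.20 and -1.09 in the 3 batches. Rnf144b was lower by a log2 difference of -0.75 (SE 0.06, adjusted p 1.11e-07). In both genes all 6 shRNF185.3 libraries were below all 6 shRNF185.1 libraries.

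Rnf13 differed by -0.35 (SE 0.07, adjusted p 0.00122), Rnf6 by -0.30 (SE 0.04, adjusted p 2.41e-05) and Rnf146 by -0.24 (SE 0.05, adjusted p 0.00148). In these 3 genes too every shRNF185.3 library was below every shRNF185.1 library. Without batch 1 Rnf13 was at -0.33 (adjusted p 0.0631) and Rnf146 at -0.24 (adjusted p 0.0519), and neither was called. Rnf24 was the gene called higher, by 0.24 (SE 0.06, adjusted p 0.0141), and it was not called without batch 1 (0.23, adjusted p 0.152) or batch 2 (0.22, adjusted p 0.119). Rnf149 was lower with shRNF185.3 by a difference of -0.19 (SE 0.05, adjusted p 0.0202; 0.0548 with the block), and Rnf103 by -0.17 (SE 0.05, adjusted p 0.0323). The Rnf103 difference was lost without any 1 of 7 libraries (shRNF185.1 replicates 1, 3 and 5 and shRNF185.3 replicates 2, 4, 5 and 6, adjusted p 0.0568 to 0.0738). Rnf216 was the remaining one, at -0.12 (adjusted p 0.0219; 0.0502 with the block, and 0.0549 and 0.0538 without shRNF185.3 replicate 1 or 6). Leaving out any 1 batch ended the calls of Rnf103 (adjusted p 0.101 to 0.182) and Rnf216 (0.06 to 0.233), and leaving out batch 1 or batch 3 ended that of Rnf149 (0.199 and 0.112).

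**Figure D3:**
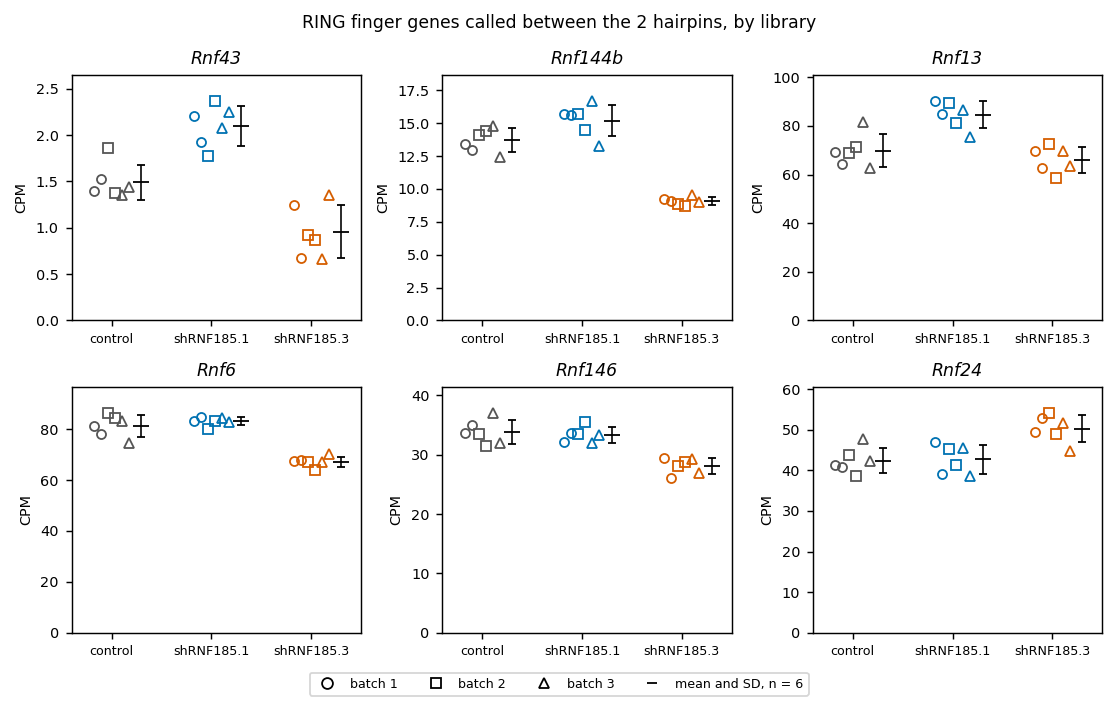
CPM by library of genes that differed between the hairpins, with symbols for the batch and bars for the mean and SD of 6 libraries in each group. In Rnf43, Rnf144b, Rnf13, Rnf6 and Rnf146 all shRNF185.3 libraries are below all shRNF185.1 libraries, and in Rnf24 5 of 6 are above them.

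The levels of the genes spanned a wide range. In control the 62 genes ran from 0.152 to 412 CPM with a median of 31.9, and 5 were under 1 CPM. Divided by exonic length, which allows levels of different genes to be set side by side, they ran from 0.0207 to 136 CPM per kilobase with a median of 6.49, and 22 genes were at 10 or more. Rnf187, a coactivator of the transcription factor c-Jun, was highest at 136 ± 11.2 CPM per kilobase (SD, n = 6). It was followed by Rnf126, a cytosolic quality control ligase, at 57.7 ± 10.1, and Rnf10 at 54.6 ± 2.02, which did not differ from each other beyond their spread. Rnf7, the RING subunit of one class of cullin ligases, was at 31.5 ± 3.13 and Rnf19b at 28.5 ± 2.74, again within their spread. Of these 5 genes Rnf19b alone was called with either hairpin in the main fit. With libraries scaled by total count only, Rnf7 was called with shRNF185.1 (0.21, adjusted p 0.0243). An offset for GC content and exonic length, added after seeing the data, called Rnf7 with shRNF185.1 (adjusted p 0.0182) and Rnf10 and Rnf187 with shRNF185.3 (0.0109 and 0.0406). Rnf10 lay at 397, 411 and 435 CPM in control and at 385, 391 and 400 with shRNF185.3, a log2 fold change of -0.07 (SE 0.03, adjusted p 0.131), and DESeq2 called it (adjusted p 0.0334).

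**Figure D4:**
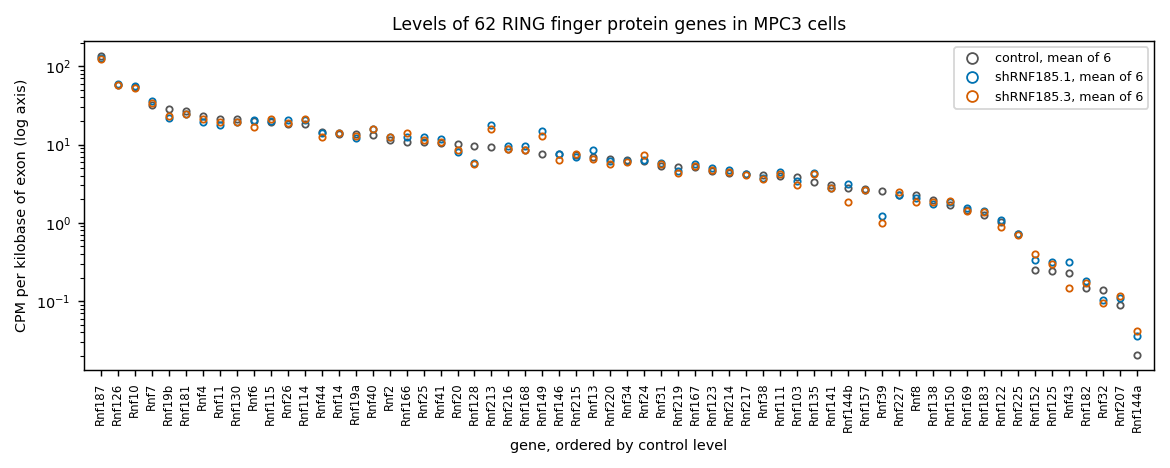
Mean level of 62 RING finger protein genes in CPM per kilobase of exon on a log axis, ordered by the control level, with a point for each group (mean of 6 libraries). The control level runs from 0.0207 to 136, and the 3 groups lie close together for most genes.

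The enzymes that supply RING ligases with ubiquitin were taken as a fixed list of 36 E1 and E2 genes, all tested. With shRNF185.1, 4 were called higher and 8 lower (median -0.03), and with shRNF185.3, 2 higher and 7 lower (median -0.06). All genes were called at 28.9% and 27.3%, which puts the total called with each hairpin near the background. Uba7, the E1 of the ubiquitin-like protein ISG15 and itself an interferon-induced gene, rose by 2.08 and 2.16 (SE 0.17 each, adjusted p 4.48e-08 and 4e-08), from 3.19 ± 0.75 CPM to 13.5 ± 2.28 and 14.2 ± 2.97 (SD, n = 6). Its partner E2 Ube2l6 was not called (0.44 and 0.83, adjusted p 0.38 and 0.0873). Uba6, the second E1 for ubiquitin, fell by 0.57 with shRNF185.1 (SE 0.08, adjusted p 1.84e-05) and was at -0.17 with shRNF185.3 (adjusted p 0.112). The difference between the hairpins for Uba6 was 0.40 (adjusted p 0.00125). Ube2c, the E2 of the anaphase-promoting complex, fell by 0.31 and 0.16 (adjusted p 0.000282 and 0.0373), and Ube2f, which pairs with Rnf7 in cullin activation, fell by 0.18 and 0.13 (adjusted p 0.00253 and 0.0208). Ube2n and Ube2l3, which serve many RING and RING-between-RING ligases, were not called with either hairpin (0.03 and 0.02 for Ube2n, 0.05 and -0.01 for Ube2l3).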

How the data were processed

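RNA-seq libraries of 18 MPC3 samples were analysed from 2 tables of the whole series. The genes and lists were chosen with earlier results of these data known. Per the submitters' processing notes, cutadapt 2.3, STAR 2.7.0d, RSEM 1.3.1 and build mm10 were used. The annotation and the settings of ComBat-Seq, the batch adjustment that the labels name, are not given in the sources used here. The deposited counts are expected counts (0.466% of values were not whole) and were rounded, where the planned design had assumed whole counts. The CPM that the authors deposited are a normalised signal and were used for levels.

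Genes were filtered by filterByExpr (minimum count 10, 14309 left) and scaled by TMM, and 1 mean per group was fitted to all 18 libraries with edgeR 4.0.16 in R 4.3.3. A standard error is the log2 fold change divided by the root of its F value. The 3 contrasts share libraries. A planned search for the RING spacing in proteins was not run. Alternatives used DESeq2 1.42.0 and limma 3.58.1, among others. Only the main edgeR fit was tested on simulated data. Those data held no batch effect and no batch adjustment, so that test cannot show whether the adjustment made p-values too small. Positions are GENCODE M21 on GRCm38, matched by identifier.

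Named genes were the 8 with the largest rise and the 8 with the largest fall among those called with each hairpin at a mean count of at least 50, those called in opposite directions, the 3 highest and 3 lowest between hairpins, and the 5 highest per kilobase. No 2 libraries of a group looked like 1 entered again: the chi-square per gene over 45 pairs was 7.64 to 84.4. Intervals of counting were not needed, and a floor of 3 counts was 0.0692 to 0.136 CPM. The labels put same-numbered libraries in the same batch, which is a pairing by label. Deviations from the group mean over 9670 genes correlated at a mean r of -0.0144 between same-numbered libraries (18 pairs, -0.628 to 0.705), -0.434 within a batch between other numbers and 0.111 between batches. Some genes of the marker and interferon lists are not reported here by name.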

Additional observations from a re-analysis of the deposited data

Results flagged for a closer look

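Differences between the hairpins under edgeR's test of the difference itself picked out 8 of the genes named here. The log2 difference, shRNF185.3 minus shRNF185.1, was -1.13 for Rnf43, -0.75 for Rnf144b, -0.35 for Rnf13, -0.30 for Rnf6, -0.24 for Rnf146, -0.19 for Rnf149 and -0.17 for Rnf103, and 0.24 for Rnf24. No library stood apart from the other 5 of its group by Dixon's criterion in the 78 gene and group sets examined, where chance gives about 1 in 20, or 3.9.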

How the results depend on the processing

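With shRNF185.1 the count of RING finger genes called moved from 17 to 8 without batch 1, to 21 without batch 2 and to 11 without batch 3. All genes tested were called at 15.5%, 35.7% and 20.3% in these fits. With shRNF185.3 the count moved from 19 to 13, 16 and 13, where 14.9%, 26.8% and 17.4% of all genes were called. Between the hairpins it moved from 9 to 3, 6 and 7, where 5.27%, 8.42% and 12.5% of all genes were called. Those fits hold fewer libraries. Leaving out 1 library at a time gave 14 to 19 with shRNF185.1, 17 to 21 with shRNF185.3 and 7 to 11 between the hairpins. All genes were called at 25.5% to 29.4%, 23% to 27.8% and 11.8% to 15.9% in these fits. A replicate block gave 16, 18 and 7, where 26.6%, 25% and 13.8% of all genes were called. Beside the genes given with a blocked value above, the block changed no other call of these genes. Summing the 2 libraries of each group and batch gave 14, 18 and 7, where 22.6%, 20.1% and 11.7% of all genes were called. It ended the shRNF185.1 calls of Rnf4 (adjusted p 0.0673), Rnf41 (0.0504), Rnf103 (0.0523), Rnf123 (0.0978) and Rnf135 (0.168). It also ended those of Rnf8 (0.0688) and Rnf219 (0.138) with shRNF185.3, and of Rnf149 (0.1) and Rnf216 (0.0539) between the hairpins. It added Rnf26 (0.0325) and Rnf144b (0.0491) with shRNF185.1 and Rnf111 (0.0403) with shRNF185.3. With batch as a covariate the counts were 12, 18 and 7, where 24.9%, 22.8% and 11.4% of all genes were called. The shRNF185.1 calls of Rnf103, Rnf111, Rnf123, Rnf135 and Rnf41 were lost in that fit (adjusted p 0.0505, 0.053, 0.0702, 0.0736 and 0.0638). So were those of Rnf219 with shRNF185.3 (0.0507) and of Rnf103 and Rnf216 between the hairpins (0.0633 and 0.0507). An offset for GC content and exonic length, chosen after seeing the data, gave 20, 25 and 12. Together with the replicate block it gave 15, 22 and 13. All genes were called at 32.6%, 32.5% and 18.7% with the offset, and at 30.1%, 29.6% and 17.5% with offset and block. DESeq2 gave 18, 19 and 12, where 30.2%, 28.9% and 16.1% of all genes were called. The 39 calls of named RING finger genes were followed over 1404 values. Of these, 1249 kept direction and kept the call or, where there was no test, lay within the spread of the main value. Another 117 kept direction and lost the call, and 37 values with no test moved by more than the spread. The 1 reversed value was Rnf135 with shRNF185.1 within batch 2 (-0.09). Of the 39 calls, 18 held under every alternative that has a test. Precision is limited by counts for the 6 genes with a mean count under 50.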
